A study of Homo sapiens with 6 samples.

Results

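The genes described here are 10 target genes of YAP and TEAD in the HMV-II line of human mucosal melanoma, out of 30015 genes in the deposited table. They are CTGF, CYR61, ANKRD1, AMOTL2, AJUBA, NUAK2, F3, TEAD1, MYOF and CRIM1, found by their symbols as the table spells them, and all 10 had enough reads to be tested. The list was chosen on the shEZH2 against Vector values of these same libraries, so the differences of these 10 genes between the groups are given as a description and without p-values. The study compared 3 libraries of HMV-II cells labelled Vector (genotype WT) with 3 libraries labelled shEZH2 (genotype EZH2 knockdown), to learn which genes and pathways respond to loss of EZH2, the enzyme of polycomb repressive complex 2 that methylates lysine 27 of histone H3. Both groups were cultured without treatment. Per the study's methods, stable lines were made by lentiviral delivery of a scrambled or an EZH2 shRNA followed by puromycin selection, and the table heads its knockdown columns sh1. There is thus 1 knockdown group, and an effect of that hairpin other than on EZH2 cannot be told apart from the loss of EZH2. Nothing in the labels says that the replicates were separate cultures, so p-values measure the spread between these libraries alone, which may be technical.

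YAP (encoded by YAP1) and its relative TAZ (encoded by WWTR1) are transcriptional coactivators that bind no DNA themselves and reach their target genes through the TEAD transcription factors. The Hippo kinases MST (STK3, STK4) activate the LATS kinases, which phosphorylate YAP and TAZ and so keep them in the cytoplasm. Cell spreading, stiff surroundings and actin tension instead favour the entry of YAP and TAZ into the nucleus. YAP and TEAD activity is therefore regulated mainly at the level of the protein, and RNA levels of target genes such as CTGF, CYR61 and ANKRD1 are commonly read as its output. In melanoma, this activity is known for its association with dedifferentiated, invasive cell states.

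TEAD factors recognise the short sequence CATTCC, read GGAATG on the other strand. RefSeq promoter windows (GRCh38.p14), each of 250 bases before and 50 bases after the start site, were at hand for 5 of the 10 genes, namely ANKRD1, CTGF, F3, MYOF and NUAK2. Of these, 3 held the motif on either strand, against 14.03% of all 35116 windows, and F3 and MYOF had 0 matches in this window. The motif was not particular to these genes. Windows were at hand for 9 of the further reported targets described below, and 5 of these held it. WTIP, a listed relative of AJUBA named after its values were seen, had 3 matches. CTGF had 3 matches, and 0.128% of all windows held at least 3. ANKRD1 and NUAK2 had 2 each, and 1.37% of all windows held at least 2. The 250 bases before the start site are shown for CTGF, ANKRD1 and NUAK2 because they carry every match in the 5 windows. They are on the strand of the gene, with the motif in capitals. They span chr6:131951373-131951622, chr10:90921088-90921337 and chr1:205321746-205321995, all on the minus strand.
CTGF: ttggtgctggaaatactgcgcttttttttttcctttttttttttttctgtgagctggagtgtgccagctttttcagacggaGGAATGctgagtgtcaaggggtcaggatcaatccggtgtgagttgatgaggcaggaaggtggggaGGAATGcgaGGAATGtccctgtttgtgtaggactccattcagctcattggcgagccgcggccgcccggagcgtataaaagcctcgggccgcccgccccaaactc
ANKRD1: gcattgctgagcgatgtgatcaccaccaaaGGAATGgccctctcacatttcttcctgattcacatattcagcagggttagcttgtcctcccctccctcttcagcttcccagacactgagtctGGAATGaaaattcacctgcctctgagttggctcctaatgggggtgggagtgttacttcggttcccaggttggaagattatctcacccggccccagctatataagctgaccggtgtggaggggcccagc
NUAK2: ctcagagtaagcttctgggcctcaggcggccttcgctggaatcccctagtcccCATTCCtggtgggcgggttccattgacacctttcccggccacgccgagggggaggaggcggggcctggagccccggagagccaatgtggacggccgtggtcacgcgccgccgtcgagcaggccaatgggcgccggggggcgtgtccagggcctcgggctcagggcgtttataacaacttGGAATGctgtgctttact

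In CTGF the matches begin 169, 104 and 95 bases before the start site. In ANKRD1 they begin 220 and 128 bases before it, and in NUAK2 197 and 18 bases before it. The deposited table places the start of ANKRD1 189 bases upstream of the RefSeq start site, so the window lies differently against that model, whereas for CTGF the 2 starts differ by 1 base and for NUAK2 by 46. The AP-1 motif TGANTCA, searched on both strands, was found in 2 of the 5 windows (ANKRD1 once and F3 at 2 places) against 7.71% of all windows, and the CArG box in 0 of the 5 against 1.29%. These matches describe letters in a window and do not show that a factor binds there.

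Read numbers recovered from the table ranged from 13400290 to 19128939 per library. EZH2 itself was lower with shEZH2 in every library of that group, with normalized counts (reads divided by the size factor of the library) of 483, 437 and 552 in Vector and 237, 247 and 225 in shEZH2, always listed from replicate 1 to 3. Its log2 fold change of shEZH2 over Vector, abbreviated log2FC, was -1.04 (standard error, SE, 0.14, limma adjusted p = 0.0142). Vector replicate 2 stood apart from the other Vector libraries along gene length. Its log2 level minus the mean of Vector replicates 1 and 3 had a median of -0.54 among genes of up to 2323 bases and of 0.42 among genes of 7931 bases or more. Values without it are therefore given below beside the results whose call it moves. The share of all genes with an adjusted p under 0.05 in that setting was not computed. Adjusted p-values without this library thus stand without a background. All 8 melanocyte markers examined (MITF, SOX10, PMEL, MLANA, TYR, DCT, TYRP1 and S100B) were present in every library, with a summed level of 75515 to 100744 normalized counts in Vector and 78898 to 85355 in shEZH2. PMEL makes up most of that sum, and single markers moved in opposite directions at the threshold described below. TYRP1 was higher (log2FC 1.68, limma adjusted p = 0.00317), as was MLANA (0.88, adjusted p = 0.214, and 0.39 without Vector replicate 2, short of the threshold), whereas TYR was lower (-0.97, adjusted p = 0.0532, and -1.22 without that library). Of 5 fibroblast markers, COL1A1, DCN and PDGFRB were under 10 normalized counts in every library, whereas LUM and COL1A2 were above 10 in every library. The summed level of the list, nearly all of it LUM and COL1A2, was 176 to 246 in Vector and 250 to 314 in shEZH2. Those 2 genes passed the threshold in opposite directions, LUM as higher (0.74, adjusted p = 0.0772) and COL1A2 as lower (-0.83, adjusted p = 0.120). EPCAM, PECAM1, KDR and CD14 were also under 10 in every library, while the endothelial list summed to 22.4 to 67.5 in Vector and 21.0 to 27.9 in shEZH2 and the epithelial list, nearly all CDH1, to 394 to 432 and 332 to 361. The leukocyte list summed to 5.09 to 21.0 and 11.5 to 13.6. The part of these markers in the results below was not tested. In bulk RNA, a change in the share of cells that express a gene and a change in the RNA of that gene per cell cannot be told apart.

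Of the 10 genes, 7 were higher and 1 was lower with shEZH2 at the study's threshold, which asks for more than a 1.5-fold difference on the log2 scale and an unadjusted p under 0.05. Over the 15251 genes tested, 7.55% were higher and 7.07% lower by the same rule. With the adjusted p also under 0.05, 6 of the 10 were higher and 0 lower (2.26% and 1.83% of all genes tested). In normalized counts, no overlap between the groups was seen in 9 genes, with shEZH2 higher in 7 and lower in 2. Of all genes tested, 18.4% did not overlap with shEZH2 higher and 16.5% with shEZH2 lower. Since the list was chosen on this contrast, nothing is read from these shares. The median log2FC of the 10 genes was 0.96, beside 0.04 for all genes tested. It was not a uniform shift, as the single values ran from 4.16 for ANKRD1 to -0.59 for MYOF. The 7 higher genes are all shorter than 6000 bases in the table, and the other 3 (CRIM1, TEAD1 and MYOF) are all longer than 7000.

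**Figure D1:**
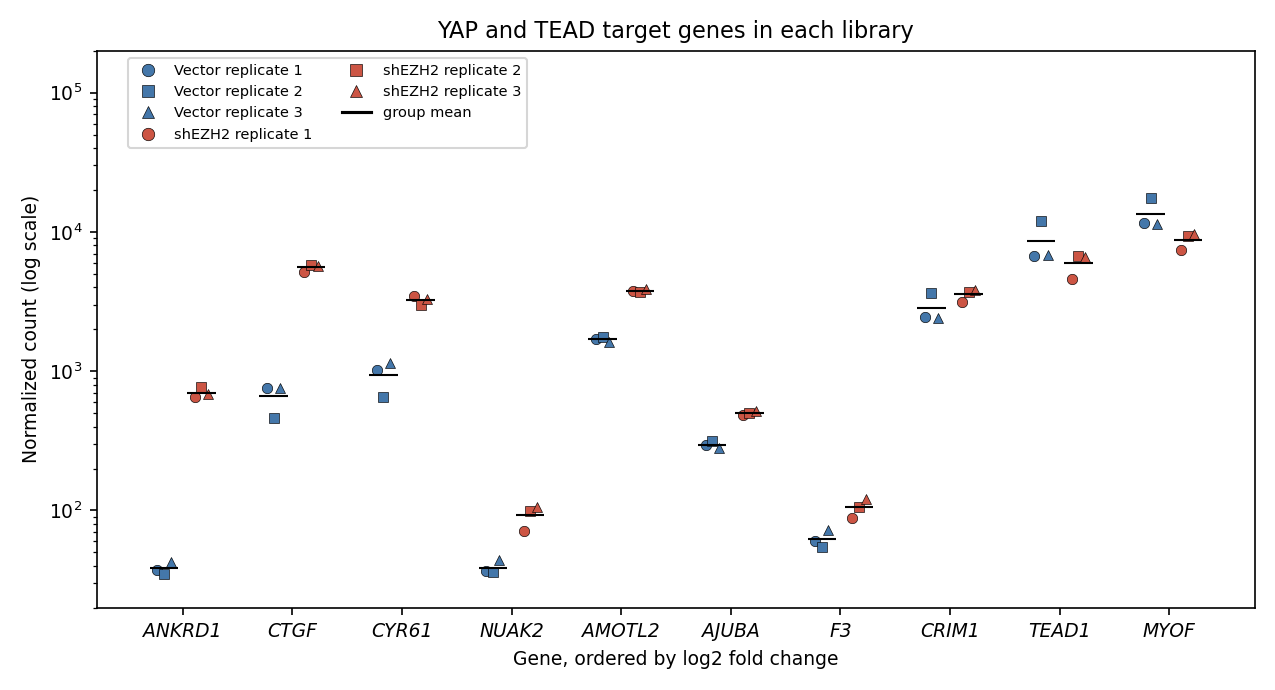
Normalized counts (log scale) of the 10 genes in each library, with Vector in blue and shEZH2 in red, a marker shape for each replicate number, and a line at each group mean. The groups stand well apart in ANKRD1, CTGF, CYR61 and AMOTL2, whereas in CRIM1, TEAD1 and MYOF Vector replicate 2 (blue squares) lies far above the other Vector libraries.

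Among the secreted products of the pathway, CTGF and CYR61 encode matricellular proteins of the CCN family, which sit in the extracellular matrix and bind integrins and growth factors. CTGF (ENSG00000118523) spans 131948176 to 131951373 of chromosome 6 (GRCh38, minus strand). Its normalized counts were 759, 463 and 764 in the Vector replicates against 5166, 5805 and 5742 with shEZH2. Every shEZH2 library lay far above every Vector library. The Vector mean was 662 ± 172 and the shEZH2 mean 5571 ± 352 (SD, n = 3 each), an 8.41-fold difference of means and a log2FC of 3.11 (SE 0.21). Vector replicate 2 was the lowest library, and leaving it out gave a log2FC of 2.87.

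CYR61 (ENSG00000142871) spans 85580761 to 85583962 of chromosome 1 (plus strand). It had 1016, 648 and 1149.5 normalized counts in the Vector replicates and 3444, 2967 and 3309 in the shEZH2 replicates. The groups did not overlap here either, and Vector replicate 2 was again the lowest. The log2FC was 1.83 (SE 0.22), and 1.58 without that library. The order of these 2 relatives turned between the groups. Per length, in reads per kilobase of gene and megaread counted (RPKM), the level of CTGF was 0.744 ± 0.0437 times that of CYR61 in Vector cells and 1.82 ± 0.240 times with shEZH2 (SD, n = 3 each). The ratio was between 0.697 and 0.784 in each Vector library and between 1.57 and 2.05 in each shEZH2 library, so CYR61 was the more abundant in every Vector library and CTGF in every shEZH2 library.

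F3 (ENSG00000117525, minus strand of chromosome 1, 94529225 to 94541800) encodes tissue factor, the membrane receptor that starts blood coagulation. Its level was low, with 60.7, 54.7 and 72.3 normalized counts in the Vector replicates and 88.6, 105 and 121 in the shEZH2 replicates. The groups did not overlap, but the gap between the highest Vector and the lowest shEZH2 library was small. The log2FC was 0.74 (SE 0.20), from 47 to 71 reads per Vector library. With the gene length trend of each library removed it was 0.56, short of the threshold.

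ANKRD1 had the largest log2FC of all genes tested. It encodes an ankyrin repeat protein best known from the heart, where it is found at the sarcomere and in the nucleus. ANKRD1 (ENSG00000148677) spans 90912096 to 90921276 of chromosome 10 (minus strand). It had 37.6, 34.9 and 42.8 normalized counts in the Vector replicates and 648, 769 and 686 in the shEZH2 replicates. The mean was 38.4 ± 3.98 in Vector cells and 701 ± 61.6 with shEZH2 (SD, n = 3 each), an 18.2-fold difference of means and a log2FC of 4.16 (SE 0.16). The Vector values rest on 30 to 42 reads per library and the shEZH2 values on 681 to 963. Left out in turn, no library moved the log2FC outside 4.09 to 4.23.

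AMOTL2, AJUBA and NUAK2 encode proteins that act back on the pathway or on the cytoskeleton. AMOTL2 belongs to the angiomotins, junctional proteins that bind YAP and hold it outside the nucleus. AMOTL2 (ENSG00000114019, minus strand of chromosome 3, 134355874 to 134375479) had 1696, 1770 and 1613 normalized counts in the Vector replicates and 3789, 3694 and 3911 in the shEZH2 replicates. It was the least variable of the 10 genes, with a coefficient of variation of 4.64% in Vector cells and 2.86% in shEZH2 cells. Its log2FC was 1.17 (SE 0.12), and no library left out in turn brought it below 1.13.

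AJUBA encodes a LIM domain protein of cell junctions that binds LATS kinases. AJUBA (ENSG00000129474, minus strand of chromosome 14, 22971174 to 22982642) had 295, 316 and 279 normalized counts in the Vector replicates and 483, 501 and 519 in the shEZH2 replicates. The 2 groups were tight and separate, with a log2FC of 0.76 (SE 0.13). NUAK2 (ENSG00000163545, minus strand of chromosome 1, 205302059 to 205321791) encodes a kinase of the AMPK family that acts on actomyosin. It had 36.6, 36.1 and 43.8 normalized counts in the Vector replicates, from 31 to 43 reads, and 71.4, 99.0 and 106 in the shEZH2 replicates. shEZH2 replicate 1 was the lowest of its group but still above all Vector libraries, and the log2FC was 1.21 (SE 0.23).

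The 3 remaining genes were not higher at the threshold. TEAD1 encodes a TEAD transcription factor, the DNA-binding partner of YAP and TAZ. TEAD1 (ENSG00000187079, plus strand of chromosome 11, 12674591 to 12944483) had 6738, 12069 and 6812 normalized counts in the Vector replicates and 4580, 6697 and 6571 in the shEZH2 replicates. Vector replicate 2 was far above all other libraries, and the lowest Vector library was barely above the highest shEZH2 library. In RPKM the groups overlapped, with 40.0, 75.3 and 40.9 in the Vector replicates and 29.0, 42.7 and 40.6 in the shEZH2 replicates. The log2FC was -0.49 (SE 0.27), short of the threshold, and -0.21 without Vector replicate 2.

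MYOF encodes myoferlin, a membrane protein of vesicle fusion and membrane repair. MYOF (ENSG00000138119, minus strand of chromosome 10, 93306429 to 93482317) had 11516, 17610 and 11315 normalized counts in the Vector replicates and 7427, 9370 and 9647 in the shEZH2 replicates. The groups did not overlap, shEZH2 being lower, and Vector replicate 2 was the highest library. The log2FC was -0.59 (SE 0.22), at the edge of the threshold, and -0.38 without that library. CRIM1 encodes a membrane protein with cysteine-rich repeats that binds bone morphogenetic proteins. CRIM1 (ENSG00000150938, plus strand of chromosome 2, 36355926 to 36551135) had 2443, 3672 and 2417 normalized counts in the Vector replicates and 3124, 3729 and 3818 in the shEZH2 replicates. The groups overlapped only through Vector replicate 2. The log2FC was 0.35 (SE 0.20), and 0.54 without that library, still short of the threshold. CRIM1 overlaps FEZ2 (mean normalized count 1149), which is read from the opposite strand, and reads in the overlap cannot be assigned because the strandedness of the libraries is not given in the sources used here.

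The split between the higher and the other genes ran along gene length, as did the departure of Vector replicate 2. That library lay below the mean of Vector replicates 1 and 3 by 0.74 on the log2 scale in CYR61 (difference -0.74), by 0.72 in CTGF (difference -0.72), by 0.27 in F3 (difference -0.27), by 0.19 in ANKRD1 (difference -0.19) and by 0.15 in NUAK2 (difference -0.15). It lay above that mean by 0.60 in CRIM1, 0.63 in MYOF and 0.83 in TEAD1. AJUBA and AMOTL2, of intermediate length, differed by 0.14 and 0.10. CTGF, CYR61, TEAD1, MYOF and CRIM1 departed further from 0 than the median of all genes in their length class, as did AJUBA by a small margin (0.14 against 0.13). Without Vector replicate 2, the same 7 genes passed the threshold as higher and 0 as lower. Of 15123 genes tested in that setting, 7.15% were higher and 5.61% lower. In the other lists described below, with all 6 libraries, higher genes were both long and short. ARHGAP29 (15524 bases), FRMD6 (9416) and NUAK1 (7008) were long, and WISP2 (4981), TEAD2 (2980) and GADD45A (2069) shorter. The lower genes there (YAP1, WWTR1, MOB1B and LIMD1) had 6296 to 12673 bases. The part of gene length in these calls was not tested.

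**Figure D2:**
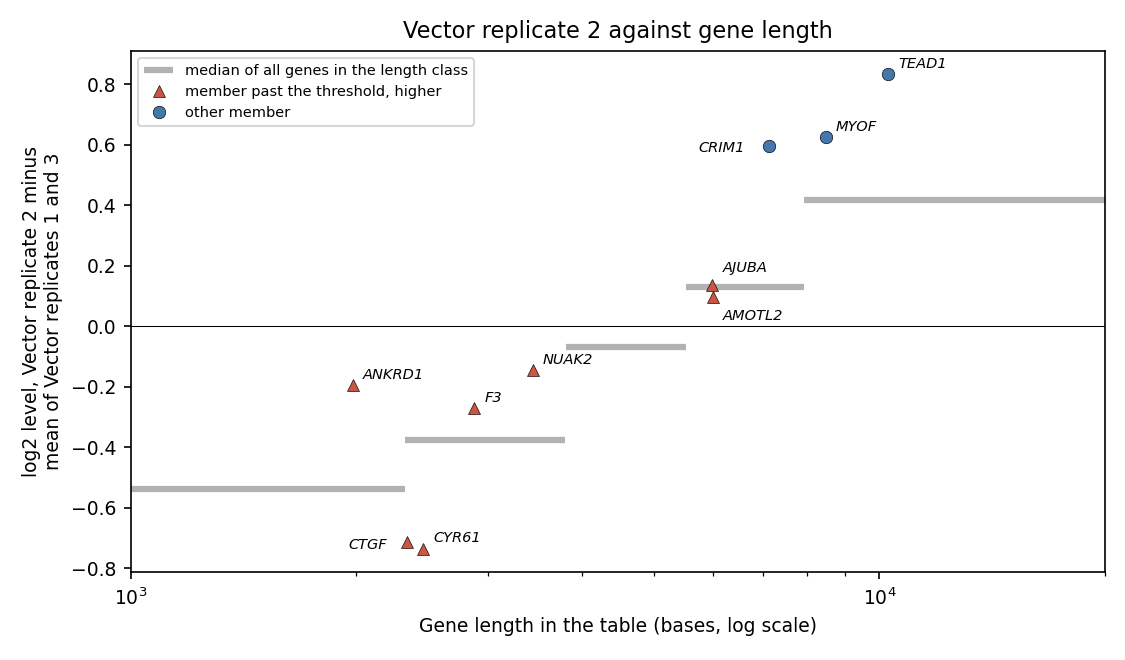
Difference in log2 level between Vector replicate 2 and the mean of Vector replicates 1 and 3 (vertical axis) against gene length in the table (log scale) for the 10 genes, with grey bars at the median of all genes in each of 5 length classes. The genes past the threshold as higher (red) lie at or below 0.14, and CRIM1, TEAD1 and MYOF (blue) lie at 0.60 or above.

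**Figure D3:**
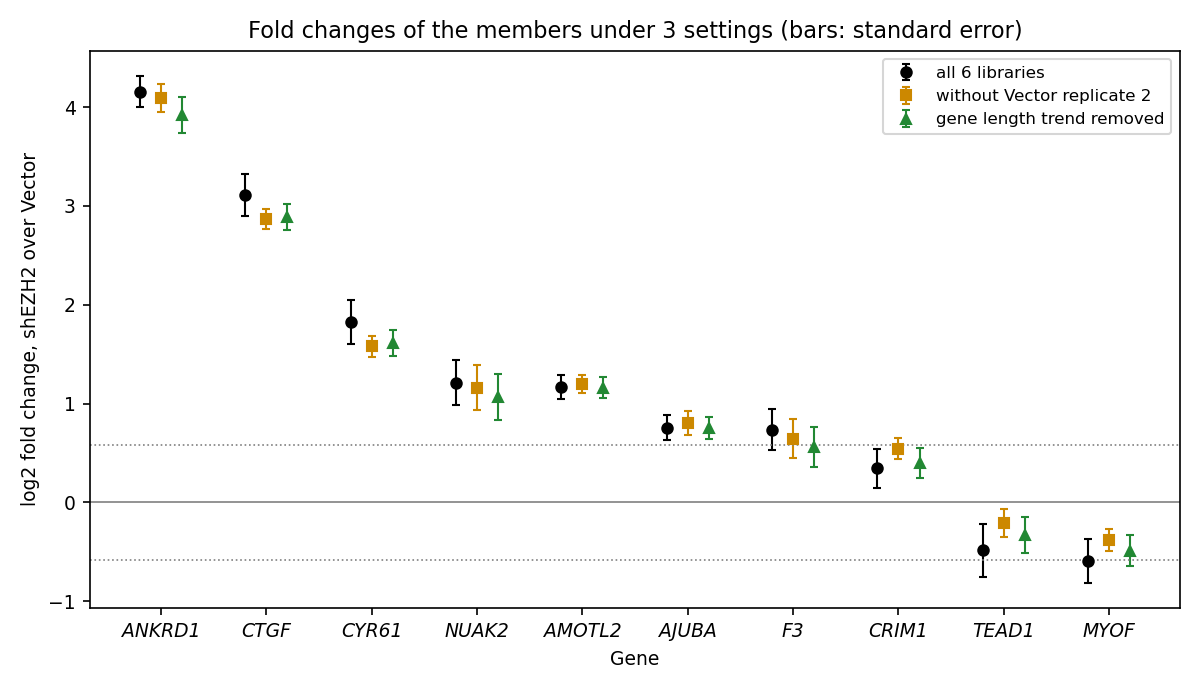
The log2FC of shEZH2 over Vector with its standard error (SE) for the 10 genes, with all 6 libraries (black), without Vector replicate 2 (orange) and with the gene length trend of each library removed (green). Dotted lines mark a 1.5-fold difference in either direction, and the direction of every gene was the same in the 3 settings, while MYOF crossed the lower line only with all 6 libraries.

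Per length, the order of the 10 genes in Vector cells ran from MYOF (mean RPKM 99.5 ± 29.2, SD, n = 3) and TEAD1 (52.0 ± 20.1) down to F3 (1.35 ± 0.175), ANKRD1 (1.21 ± 0.109) and NUAK2 (0.702 ± 0.0726). MYOF was above TEAD1 in every library, and in both the spread was wide because Vector replicate 2 was far higher than the others. Next came CRIM1 (25.0 ± 6.99), CYR61 (23.7 ± 6.13), AMOTL2 (17.6) and CTGF (17.5 ± 4.203). Among these 4, neighbours in the order did not differ beyond their spread. AJUBA stood well below them at 3.09 ± 0.262. F3 and ANKRD1 were also within their spread of each other. In shEZH2 cells the order was led by CTGF (154 ± 9.46) and CYR61 (85.4 ± 6.12), followed by MYOF (67.3 ± 8.84), AMOTL2 (41.1 ± 0.579), TEAD1 (37.4 ± 7.36) and CRIM1 (32.3 ± 3.24), of which AMOTL2 and TEAD1, and TEAD1 and CRIM1, were within their spread of each other. ANKRD1 had moved up to 22.9 ± 2.19, whereas AJUBA (5.42 ± 0.142), F3 (2.36 ± 0.339) and NUAK2 (1.73 ± 0.331) stayed at the lower end.

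The coactivators themselves, which are not on the chosen list, were tested. Both were lower in shEZH2 cells at the study's threshold. The targets above were chosen on this contrast, so their direction is not set against that of the coactivators. YAP1 (ENSG00000137693) had 2293, 2957 and 2328 normalized counts in the Vector replicates and 1337, 1787 and 1659 in the shEZH2 replicates. Its log2FC was -0.66 (SE 0.17, limma adjusted p = 0.0774). WWTR1 (ENSG00000018408) had 9015, 9368 and 9333 normalized counts in the Vector replicates and 5580, 6720 and 6114 in the shEZH2 replicates, with a log2FC of -0.59 (SE 0.14, adjusted p = 0.0609). In neither gene did the groups overlap. Neither passed adjustment over all genes in this limma fit of 6 libraries, and whether they passed depended on the fit. With DESeq2 on the same libraries the adjusted p was 0.0152 for YAP1 and 0.000715 for WWTR1 (log2FC -0.69 and -0.61). With edgeR it was 0.0780 and 0.0704, and in limma with the gene length trend removed 0.0314 and 0.0475. In limma without Vector replicate 2 the adjusted p was 0.00813 for YAP1 and 0.00149 for WWTR1. The log2FC was then -0.55 and -0.58, just short of the 1.5-fold threshold. YAP1 was also short without shEZH2 replicate 1 (-0.54), as was WWTR1 (-0.53). Summed per length, YAP1 and WWTR1 together had 93.4 ± 7.19 RPKM in Vector cells and 63.6 ± 6.95 in shEZH2 cells (SD, n = 3 each), and WWTR1 was between 2.37 and 3.12 times as abundant as YAP1 in every library.

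TEAD2 rose, from 167, 139 and 161 normalized counts in the Vector replicates to 258, 240 and 289 with shEZH2 (log2FC 0.75, SE 0.16, limma adjusted p = 0.0429). TEAD4 and TEAD3 did not pass the threshold, with log2FC values of 0.45 (adjusted p = 0.123) and 0.19 (adjusted p = 0.520). TEAD4 was at 0.50 without Vector replicate 2 (adjusted p = 0.0151), still short of the threshold in size. Per length, TEAD1 made up most of the summed TEAD1 to TEAD4 RNA in every library. Its share was 69.3% to 80.2% in the Vector libraries, highest in replicate 2, and 50.9% to 64.0% in the shEZH2 libraries. The share of TEAD4 was 14.2% to 19.99% in Vector and 23.1% to 33.6% in shEZH2, and that of TEAD2 3.17% to 5.93% and 7.92% to 9.89%. All 3 of these shares separated the groups without overlap.

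**Figure D4:**
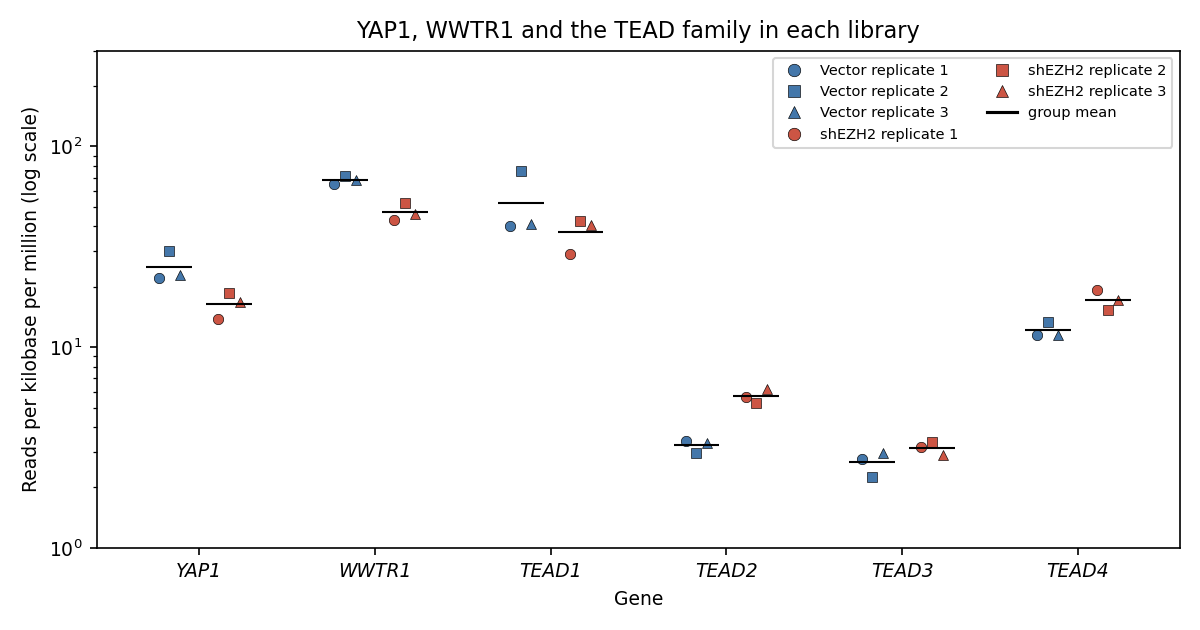
RPKM (log scale) of YAP1, WWTR1 and TEAD1 to TEAD4 in each library, with Vector in blue, shEZH2 in red and a line at each group mean. YAP1 and WWTR1 are lower in all 3 shEZH2 libraries, TEAD2 and TEAD4 are higher in all 3, and in TEAD1 the Vector mean is pulled up by Vector replicate 2.

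Of the 29 genes listed for the Hippo pathway (20 upstream genes and 9 effectors and VGLL cofactors), 26 were tested. The threshold was passed by 2 as higher (TEAD2 and FRMD6) and 3 as lower (YAP1, WWTR1 and MOB1B), with the limma adjusted p under 0.05 in TEAD2 alone, and the median log2FC of the 26 was -0.09. These counts stand beside 7.55% of all genes tested as higher and 7.07% as lower, and 2 of 26 is close to the first of these shares. Without Vector replicate 2, 3 were higher (DCHS1 at 1.32, named after its values were seen, beside TEAD2 and FRMD6) and 1 lower (MOB1B), with a median of 0.06, where 7.15% and 5.61% of all genes were higher and lower. DCHS1 rests on 14 and 11 reads in Vector replicates 1 and 3. Its level in Vector replicate 2 (36.1 normalized counts) lay within the shEZH2 range of 29.6 to 38.1. FRMD6, a FERM domain protein upstream of the kinases, had a log2FC of 0.67 (SE 0.16, limma adjusted p = 0.0633), and 0.74 without that library (adjusted p = 0.00114). MOB1B, a cofactor of LATS, had one of -0.75 (SE 0.21, adjusted p = 0.0893), and -0.59 without it (adjusted p = 0.0137). The kinases did not pass, at -0.50 for LATS1, -0.51 for STK4 and 0.26 for STK3 (adjusted p = 0.164, 0.115 and 0.343). STK4 was at -0.39 without Vector replicate 2 (adjusted p = 0.0186), short of the threshold in size. NF2, the membrane scaffold that activates LATS, had 2814, 6220 and 2685 normalized counts in the Vector replicates and 3990, 3933 and 4179 in the shEZH2 replicates. The log2FC of NF2 was 0.16 with all libraries and 0.55 without Vector replicate 2 (adjusted p = 0.773 and 0.00124), short of the threshold in size.

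A further 17 genes reported as YAP and TEAD targets were listed, of which 13 were tested. Their values ran in both directions, from 1.52 for ARHGAP29 to -0.44 for DOCK5, which is named here as the lowest. The median log2FC was 0.03, beside 0.04 for all genes tested, and 8 of the 13 had a value above 0. The threshold was passed by 2 as higher and 0 as lower, beside 7.55% and 7.07% of all genes tested. ARHGAP29, which encodes a GTPase-activating protein, rose. It had 650.4, 900.0 and 625 normalized counts in the Vector replicates and 1765, 2326 and 2096 in the shEZH2 replicates (log2FC 1.52, SE 0.19, limma adjusted p = 0.0107). Leaving out any 1 shEZH2 library also left ARHGAP29 alone past the threshold. GADD45A, a stress-induced growth arrest gene, passed the threshold with a log2FC of 0.96, but its adjusted p was 0.209 and Vector replicate 2 (635 normalized counts) lay far below Vector replicates 1 and 3 (1803 and 1935). Without Vector replicate 2 the log2FC of GADD45A was 0.44, and 3 of the 13 targets then passed as higher, namely ARHGAP29 (1.68), the receptor tyrosine kinase AXL (0.86) and ARHGEF17 (0.81). AXL and ARHGEF17 are named after their values were seen, and Vector replicate 2 had 7327 normalized counts of AXL against 3472 and 3386 in the other Vector libraries. Of the 13, 10 were then above 0, and their median was 0.12, beside -0.00316 for all genes. The share of all genes passing as higher was 7.15% in that setting.

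**Figure D5:**
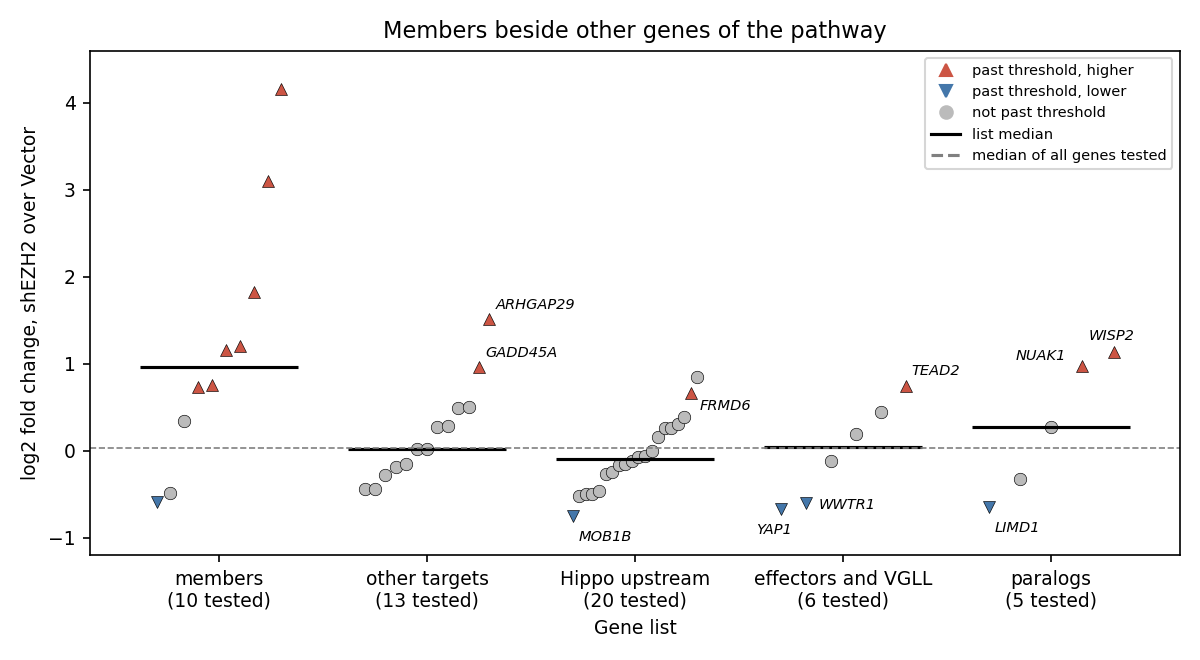
The log2FC of each gene tested (points) in the chosen list and in 4 other lists, with the list median as a black line and the median of all genes tested (0.04) dashed. Triangles mark genes past the threshold, and the medians of the other targets (0.03), the Hippo upstream genes (-0.09) and the effectors (0.04) lie near the dashed line. The median of the 5 paralogs (0.28) lies above it, and the first list was chosen on these values.

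Paralogs of the 10 genes were compared to see which relatives moved with them. Of 12 listed, 5 were tested, and 2 passed the threshold as higher and 1 as lower, beside 7.55% and 7.07% of all genes tested. Without Vector replicate 2, 6 were tested, with 3 higher, 0 lower and a median log2FC of 0.58, where 7.15% and 5.61% of all genes were higher and lower. The gene gained was ANKRD2, a relative of ANKRD1 that is under the minimum mean with all 6 libraries (log2FC 1.53 without that library), named after its values were seen. ANKRD2 rests on 6 and 3 reads in Vector replicates 1 and 3 and on 15 to 18 reads per shEZH2 library. It reached the minimum mean of 10 only through the shEZH2 libraries, where it is high. Nothing is therefore read from its call, which is included in the 3 higher paralogs and in the median of 0.58. WISP2, a CCN family protein related to CTGF and CYR61, rose from 329, 236 and 282 normalized counts in the Vector replicates to 665, 577 and 607 in the shEZH2 replicates (log2FC 1.13, SE 0.16, limma adjusted p = 0.0162). NOV, a further CCN gene, named after its values were seen, had a log2FC of 0.28 (SE 0.16, adjusted p = 0.332). NUAK1, the closest relative of NUAK2, had one of 0.98 (SE 0.24, adjusted p = 0.0709), with 144, 196 and 101 normalized counts in the Vector replicates against 265, 276 and 301 in the shEZH2 replicates. The log2FC of NUAK1 was 1.21 without Vector replicate 2 (adjusted p = 0.000362). LIMD1, a relative of AJUBA, had 497, 836 and 511 normalized counts in the Vector replicates and 339, 356 and 456 in the shEZH2 replicates. Its log2FC was -0.65 (adjusted p = 0.161) and -0.40 without Vector replicate 2, which no longer passed the threshold.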

How the data were processed

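RNA-seq of HMV-II cells was deposited as 1 table with 3 Vector and 3 shEZH2 columns. Per the labels, the processing of the authors used DESeq2 1.20.0 and, for counting, featureCounts v1.5.0-p3. The aligner and strandedness are not given in the sources used here. The deposited signal values are counts divided by 1 size factor per library. Division by the smallest nonzero value of a column gave whole reads for 100% of its values (tolerance 1e-06). All 6 library columns were used and 0 left out. The labels name hg19, but 99.6% of 22718 genes compared overlap their own RefSeq gene in GRCh38 and 13.9% their own gene in GRCh37, so the coordinates were read as GRCh38. The authors' log2 fold changes and p-values, also deposited, were not used.

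The groups were compared with limma 3.58.1 (R 4.3.3) with a mean-variance trend on log2(value + 1), over 15251 genes whose mean reached 10, with Benjamini-Hochberg adjustment over all of them. Fold changes on this scale understate the change of low genes. The genes and lists were chosen with earlier results of these data known. Named genes are the 10 members, EZH2, YAP1, WWTR1, TEAD2, TEAD3, TEAD4, LATS1, NF2, STK3, STK4 and, in each list, at most the 4 largest changes past the threshold in each direction. Genes outside this rule are marked in the text. RPKM was computed from the recovered reads and the table's gene lengths. Other settings were edgeR 4.0.16 and DESeq2 1.42.0 on the recovered reads, 0.1 and 5 as pseudocount, a minimum mean of 50 or none, TMM scaling, a replicate block, removal of each library's gene length trend by loess, an adjusted p, and each library left out in turn, with the minimum applied to the libraries kept. The fits were tested on simulated data. Counts and replicates limit precision as given by the standard errors.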

Additional observations from a re-analysis of the deposited data

How the results depend on the processing

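The count of 7 higher genes among the 10 was 7 with edgeR, DESeq2 and every library left out in turn. It was 6 with the gene length trend removed or an adjusted p, when F3 fell short. The list was chosen on this contrast, so nothing is read from the steadiness of this count. The 1 lower gene, MYOF, was lost (0 genes) with TMM scaling, with the gene length trend removed and with an adjusted p, and the count ran from 0 to 1 with each library left out, being 0 without Vector replicate 2, shEZH2 replicate 1 or shEZH2 replicate 2. All 10 genes kept their direction under all 15 settings that gave a fold change. The other targets past the threshold as higher were 1 in place of 2 with edgeR, with a mean of at least 50 and with an adjusted p. They were 3 with the gene length trend removed or with no minimum. With each library left out they were 1 to 3, being 1 without any 1 of the shEZH2 libraries. Those lower were 1 in place of 0 with no minimum, and 0 to 1 with each library left out. Hippo genes counted as higher were 1 with an adjusted p and 1 to 3 with each library left out (3 without Vector replicate 2, 1 without shEZH2 replicate 2), and those lower were 0 with an adjusted p and 1 to 5 with each library left out, 5 without Vector replicate 1 and 1 without Vector replicate 2 or shEZH2 replicate 1. Higher paralogs numbered 1 with an adjusted p, 3 with no minimum and 2 to 3 with each library left out (3 without Vector replicate 2 or 3), and the lower paralog was lost (0) with the gene length trend removed or an adjusted p and ran from 0 to 1 with each library left out. Over all 15251 genes tested, 1086 were higher and 1191 lower with edgeR, and 1045 and 1321 with DESeq2. With the gene length trend removed they were 1009 and 1043, and with TMM scaling 1250 and 976. They were 803 and 805 of 11891 with a mean of at least 50, and 1701 and 1610 of 30015 with no minimum. With each library left out, 843 to 1535 were higher and 774 to 1316 lower. Over all genes, an adjusted p left 345 higher and 279 lower, which is stricter by construction. Beyond that, the cause was not tested.

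YAP1 was short of the threshold in size without Vector replicate 2 (-0.55) or shEZH2 replicate 1 (-0.54), and WWTR1 without either of these, with TMM scaling (-0.56) and with the length trend removed (-0.49), and so was TEAD2 with the length trend removed (0.58). Over the settings, the adjusted p of YAP1 ran from 0.00813 to 0.266 and that of WWTR1 from 0.000715 to 0.272. That of ARHGAP29 ran from 2.72e-08 to 0.0975, that of WISP2 from 4.04e-07 to 0.127 and that of TEAD2 from 0.00291 to 0.237. That of EZH2 ran from 5.94e-08 to 0.129, being above 0.05 without any 1 library other than Vector replicate 2. The log2 fold change of EZH2 stayed between -1.13 and -0.96. Whether the replicate numbers pair the samples is not settled by these values. The deviations of same-numbered libraries from their group means correlated at 0.28, 0.22 and -0.11. Those of differently numbered libraries correlated at -0.31 to 0.25. With a replicate block, 7 of the 10 genes were still higher and 1 lower. Of all genes, 1322 were then higher and 1112 lower, beside 1151 and 1078 without the block. In ANKRD1, NUAK2 and F3, 30 to 71 reads per Vector library limit the precision of the fold.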
